A study of Mus musculus with 4 samples.

Results

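The centrosome genes described here are 36 genes chosen by symbol: ninein (*Nin*), the gene the study turned on, and 35 genes for other centrosomal, centriolar and spindle pole proteins, many of them mutated in primary microcephaly. All 36 had a row among the 23038 genes of the mouse cortex mRNA-seq data, and 143 of the 38240 alternative splicing events lay in 34 of them. The series held 4 samples, each the cortex of an E14.5 mouse embryo: 2 controls, which the labels call wild type and the study describes as *Qk* fl/fl littermates, and 2 *Qk* cKO embryos, labelled *Qk* knock-out and described as Nestin-Cre; *Qk* fl/fl. Both groups therefore carried the floxed *Qk* alleles, and the Cre of the *Qk* cKO embryos was driven by the *Nestin* promoter, which is active in neural progenitors, so cells of other origin keep *Qk*. Poly(A) RNA was sequenced from whole cortex, and in such bulk tissue fewer cells of a type and less RNA per cell cannot be told apart.

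The centrosome is built from a pair of centrioles and the pericentriolar material around them, from which gamma-tubulin ring complexes nucleate microtubules. The older centriole carries appendages that anchor microtubules and, at the distal end, dock the primary cilium. In the developing cortex, radial glia divide at the ventricular surface, where the centrosome bears the cilium and, in mitosis, forms the spindle poles, and loss of several of these proteins in humans gives a small brain with an orderly pattern. *Qk* encodes the Quaking RNA-binding proteins, of which the nuclear form Qki5 acts on alternative splicing of pre-mRNA.

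The 4 libraries held between 37942046 and 42994832 tags, a tag being a sequenced fragment that was assigned to a gene. The replicates of a group differed by more than the counting of tags alone gives, with a chi-square per degree of freedom of 13.3 between the controls and 18.2 between the *Qk* cKO samples. The deletion of *Qk* exon 2 was visible in both *Qk* cKO samples and in neither control. Tags on the junction of exons 2 and 3 numbered 635 and 565 in the controls against 63 and 68 in *Qk* cKO. Per 100 tags on the junction of exons 3 and 4 they came to 6.40% of the control value. That second junction itself held 574 and 439 tags in the controls and 898 and 830 in *Qk* cKO, which lowers this ratio. The level of *Qk* as a whole was called higher in *Qk* cKO. Markers of cortical neurons, intermediate progenitors, interneurons, endothelium, microglia, meninges and blood held no called gene. *Fabp7* and *Slc1a3* of the 9 radial glia markers were called lower in *Qk* cKO. Of 8 diencephalic and hypothalamic markers 6 were called lower, and the fitted change was downward in all 8. Their summed level was 14.4 and 31.2 RPKM in the controls against 12.7 and 6.11 in *Qk* cKO, so that control 2 stood apart. RPKM, the authors' measure of level, is the number of tags scaled to transcript length and library size. *Xist*, an RNA made in female cells, was at 57.1 RPKM in control 1 and 64.5 in *Qk* cKO 1. It was at 0.0265 RPKM in control 2 and 0.00951 in *Qk* cKO 2. By this RNA, control 1 and *Qk* cKO 1 were female and the other samples male, so replicates of a group also differed in sex.

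3 cassette exons, that is exons that are either included or skipped whole, carry the splicing results, in *Nin*, *Akap9* and *Pcnt*, and their sequences come first. They were read from the GENCODE M21 transcripts Nin-215, Akap9-207 and Pcnt-201, on the GRCm38 build (mm10), and are written 5′ to 3′ along the transcript with the cassette exon in capitals and 30 bases of each flanking exon in lower case. For *Nin*, whose exon is too long to print, the first and the last 60 bases of exon 18 are shown. They are given because the junctions between lower case and capitals are the places where the counted tags distinguish the isoforms.
Nin exon 17-18 junction: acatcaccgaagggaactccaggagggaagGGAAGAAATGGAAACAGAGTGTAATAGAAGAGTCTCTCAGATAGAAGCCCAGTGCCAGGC
Nin exon 18-19 junction: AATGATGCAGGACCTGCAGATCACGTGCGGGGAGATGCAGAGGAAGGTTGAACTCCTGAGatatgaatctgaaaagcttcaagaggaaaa
Nin skipped: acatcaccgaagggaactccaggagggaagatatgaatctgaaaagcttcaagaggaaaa
Akap9 included: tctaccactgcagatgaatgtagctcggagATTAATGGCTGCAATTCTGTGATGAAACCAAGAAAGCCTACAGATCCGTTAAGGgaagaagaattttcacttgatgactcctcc
Akap9 skipped: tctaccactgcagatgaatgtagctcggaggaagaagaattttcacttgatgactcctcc
Pcnt included: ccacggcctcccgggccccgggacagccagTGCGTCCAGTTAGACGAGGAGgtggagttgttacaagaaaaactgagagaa
Pcnt skipped: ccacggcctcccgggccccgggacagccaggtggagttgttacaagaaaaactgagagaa

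The *Nin* exon lies at chr12:70042132-70044252 on the minus strand, is 2121 nt long, and sits between introns of 894 and 1251 nt (upstream and downstream). It was coding throughout in each of the 6 annotated transcripts, of 17 for *Nin*, that hold it, and 3 others join exon 17 directly to exon 19. The *Akap9* exon at chr5:3954397-3954450 on the plus strand is 54 nt long and lies between introns of 2662 and 341 nt. It was part of 1 of 15 annotated transcripts. The *Pcnt* exon at chr10:76403624-76403644 on the minus strand is 21 nt long, follows an intron of 113 nt and precedes one of 2088 nt. It was part of 3 of 8 annotated transcripts, coding throughout in 2 of them, and no annotated transcript joined its neighbours directly. Each exon has the length of a whole number of codons, 707 in *Nin*, 18 in *Akap9* and 7 in *Pcnt*. Where the exon is coding, the reading frame downstream is therefore the same with and without it. The GC content was 54.4% in the *Nin* exon, 40.7% in the *Akap9* exon and 57.1% in the *Pcnt* exon.

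The first question was whether *Qk* loss changed the level of the centrosome transcripts. Only *Aspm* passed the test, and it was higher in *Qk* cKO. The other 35 transcripts gave log2 fold changes (*Qk* cKO over control) from -0.06 to 0.23, none of which passed. A transcript was called where edgeR's quasi-likelihood test gave p under 0.01 and a Benjamini-Hochberg false discovery rate (FDR) under 0.1 over all 18834 genes tested, and 0.584% of those genes were called, 0.207% of them as higher and 0.377% as lower. With 1 of 36 members higher and 0 lower, the members' calls are too few to set apart from that background. All 36 had at least 1 RPKM in both groups, with mean levels over the 4 samples from 3.37 RPKM for *Mcph1* to 64.8 RPKM for *Tubg1* and a median of 11.1 RPKM.

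**Figure D1:**
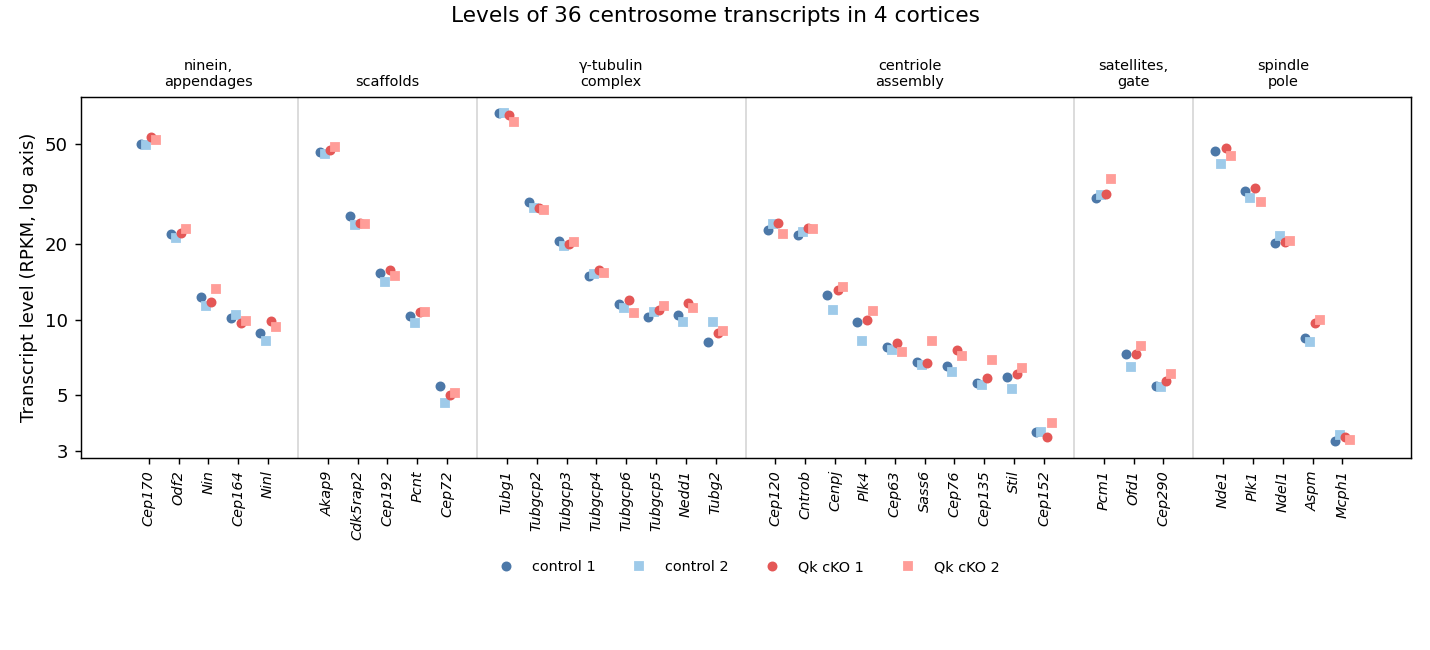
Level of each of the 36 transcripts in RPKM (vertical log axis) in control 1, control 2, *Qk* cKO 1 and *Qk* cKO 2, ordered by role and, within a role, by mean level. The 4 samples of a gene lie close together, and the span between genes, from 3.37 RPKM for *Mcph1* to 64.8 RPKM for *Tubg1*, is far wider than that between samples.

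Although nearly all members missed the threshold, their fold changes lay mostly on one side of 0. The log2 fold change was above 0 for 31 of 36 members, against 50.6% of the 12569 genes with at least 1 RPKM in both groups, and its median was 0.08 against 0.00 in those genes. Both *Qk* cKO samples lay above both controls for 17 members (17.9% of the same genes) and below both for 2, *Cep164* and *Tubg1* (22.7%). An unadjusted p under 0.05 was reached by 3 members, *Aspm*, *Plk4* and *Cenpj*, a share close to the 10.9% of those genes. The standard errors, between 0.05 and 0.12 on the log2 scale, were as large as or larger than many of these fold changes. Genes of cycling cells lay on the same side: all 15 listed (*Mki67*, *Top2a*, *Pcna*, cyclins and mitotic kinases among them) had a log2 fold change above 0 with a median of 0.13, *Bub1* and *Ccna2* were called higher, and their summed level was 890 and 772 RPKM in the controls against 927 and 903 in *Qk* cKO. The part of the share of cycling cells in the members' fold changes was not tested.

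Among the proteins of the spindle pole and of mitotic regulation, *Aspm* rose. *Aspm*, which focuses spindle microtubules at the poles and is the gene most often mutated in primary microcephaly, lies at chr1:139454772-139494091. Its level was 8.46 and 8.12 RPKM in the controls and 9.68 and 10.02 RPKM in *Qk* cKO. Both *Qk* cKO samples were above both controls, with less spread within a group than between the groups. The log2 fold change was 0.26 ± 0.06 (SE, n = 2 per group) with an FDR of 0.0662 by edgeR's quasi-likelihood test. The call was lost with edgeR's exact test (FDR 0.133), with a stricter filter on low counts (0.214), and without control 1 (0.413), control 2 (0.932) or *Qk* cKO 2 (0.260), while the log2 fold change stayed between 0.23 and 0.29 in all of these. *Mcph1*, microcephalin, which restrains chromosome condensation and acts in the DNA damage response, was the lowest expressed member, at 3.29 and 3.46 RPKM in the controls and 3.41 and 3.31 in *Qk* cKO. Its groups overlapped, with a log2 fold change of 0.01 (edgeR FDR 0.996). *Nde1* and *Ndel1*, which recruit dynein, and the mitotic kinase *Plk1* gave log2 fold changes of 0.08, -0.01 and 0.01, also with overlapping groups.

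The 10 centriole assembly genes all had a log2 fold change above 0 (50.6% of genes with at least 1 RPKM), with a median of 0.17 and none called. In 6 of them both *Qk* cKO samples lay above both controls (17.9% of the same genes with at least 1 RPKM). The largest was that of *Cep76*, which restrains the reduplication of centrioles, at 6.52 and 6.18 RPKM in the controls and 7.55 and 7.18 RPKM in *Qk* cKO. These values did not overlap, and gave a log2 fold change of 0.23 ± 0.11 (SE) with an FDR of 0.573 in the edgeR quasi-likelihood test. *Cep135*, a protein of the centriolar cartwheel, had 5.602 and 5.473 RPKM in the controls and 5.87 and 6.94 in *Qk* cKO, where *Qk* cKO 1 stayed close to the controls and *Qk* cKO 2 was higher. Its log2 fold change was 0.22 ± 0.11 (edgeR FDR 0.615). *Plk4*, the kinase that starts centriole duplication, and *Cenpj*, which sets centriole length, gave 0.22 and 0.20 (edgeR FDR 0.477 and 0.519). *Stil* and *Sass6*, which build the cartwheel with *Cep135*, gave 0.17 each. The remaining 4, *Cntrob*, *Cep152*, *Cep63* and *Cep120*, lay between 0.00 and 0.09.

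Of the 8 genes of the gamma-tubulin complex none was called, and the median log2 fold change was 0.01. *Tubg1*, the main gamma-tubulin and the most abundant transcript of the 36, was at 66.4 and 66.5 RPKM in the controls and at 65.2 and 61.2 RPKM in *Qk* cKO. Both *Qk* cKO values were lower, *Qk* cKO 1 only slightly, and the log2 fold change of -0.06 ± 0.06 (SE) had an FDR of 0.855 by edgeR. *Tubgcp2*, a core subunit that pairs with gamma-tubulin, had 29.4 and 27.8 RPKM in the controls and 27.9 and 27.5 in *Qk* cKO, with overlapping groups and a log2 fold change of -0.03 (edgeR FDR 0.912). The other 6 lay between 0.01 and 0.18, the highest being *Nedd1*, which attaches the complex to centrosomes and spindle microtubules, where both *Qk* cKO samples exceeded the controls (edgeR FDR 0.657).

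The pericentriolar scaffolds held no called transcript, and this includes the 2 genes with a called exon. *Pcnt*, pericentrin, the scaffold that organises the pericentriolar material and is mutated in a primordial dwarfism with a small brain, had 10.4 and 9.74 RPKM in the controls and 10.8 in each *Qk* cKO sample, a log2 fold change of 0.11 ± 0.06 (edgeR FDR 0.626). *Akap9*, which anchors kinases and microtubule nucleation at the Golgi and the centrosome, had 46.6 and 45.8 RPKM in the controls and 47.6 and 48.6 in *Qk* cKO, a log2 fold change of 0.07 ± 0.08 (edgeR FDR 0.856). In both genes the *Qk* cKO samples lay just above the controls. *Cep192*, *Cep72* and *Cdk5rap2*, the last a microcephaly protein that activates gamma-tubulin complexes, gave 0.07, 0.02 and -0.03 with overlapping groups. The 3 genes of centriolar satellites and the ciliary gate, *Pcm1*, *Ofd1* and *Cep290*, gave 0.15, 0.14 and 0.13 (edgeR FDR 0.580, 0.791 and 0.779).

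In the ninein family and among the appendage proteins none of the 5 transcripts was called. *Nin*, whose protein sits on the subdistal appendages and anchors microtubule minus ends, spans chr12:70011435-70113717. Its level was 12.3 and 11.3 RPKM in the controls and 11.8 and 13.3 RPKM in *Qk* cKO. The groups overlapped, since *Qk* cKO 1 lay between the controls. The log2 fold change was 0.09 ± 0.06 (SE, n = 2 per group) with an edgeR FDR of 0.748, close to the median of 0.08 over all 36 members. *Cep164*, a distal appendage protein needed to form the cilium, was at 10.2 and 10.4 RPKM in the controls and 9.69 and 9.92 in *Qk* cKO, slightly lower in both (log2 fold change -0.06 ± 0.08, edgeR FDR 0.894). *Ninl*, the ninein-like protein, *Cep170*, which binds the subdistal appendages, and *Odf2*, which builds them, gave 0.19, 0.10 and 0.07, each with both *Qk* cKO samples above the controls (edgeR FDR 0.599, 0.795 and 0.767).

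**Figure D2:**
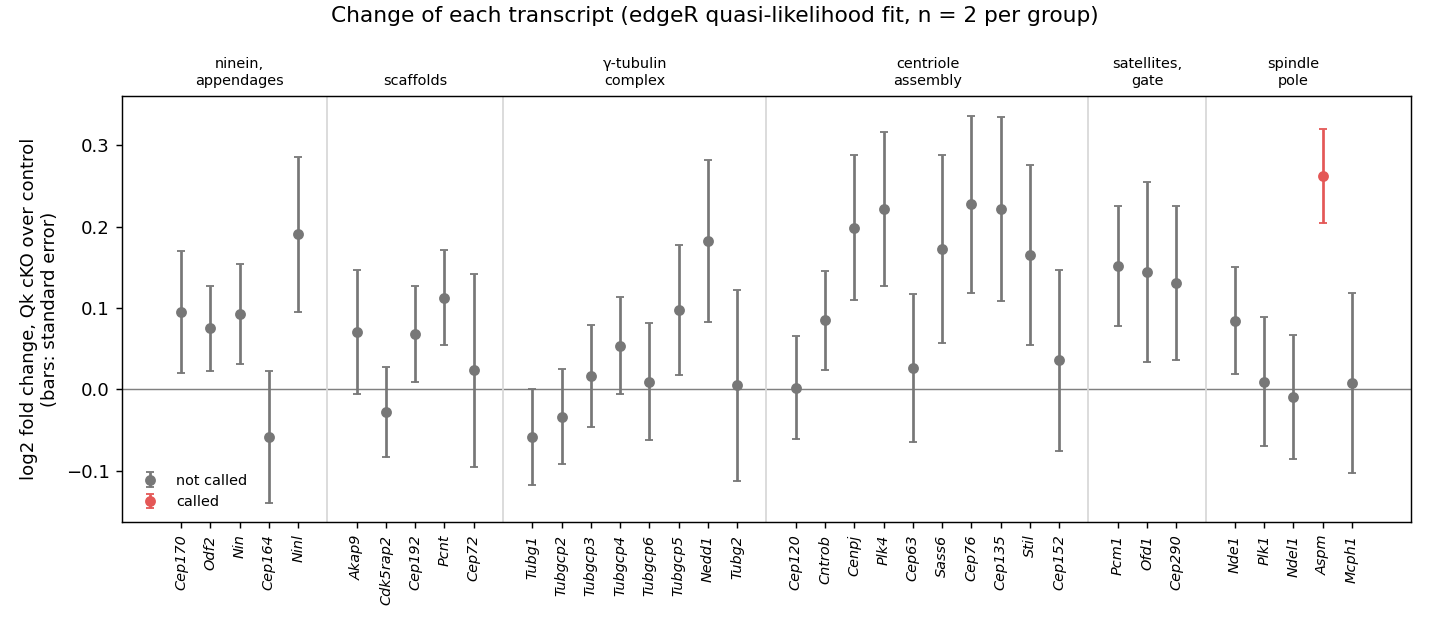
Fitted log2 fold change (*Qk* cKO over control, vertical axis) of each of the 36 transcripts with its standard error (bars), ordered by role, with the called gene in red. Most points lie above 0 by less than 0.2, *Aspm* is the one called, at 0.26, and the centriole assembly genes stand at a median of 0.17 while the gamma-tubulin complex stands at 0.01.

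The second question was whether splicing of the same genes depended on *Qk*. Inclusion is the share of an exon's inclusion among the junction tags, with the tags of the upstream and downstream junctions averaged before they are set against those of the skipping junction, and the difference in inclusion is *Qk* cKO minus control. Events were tested where each group and each isoform held at least 20 junction tags, which left 53 of the 143 member events in 21 genes, while 13 genes had events but none with enough tags and 2 genes had no event. The tested ones were 21 cassette exons, 1 tandem cassette, 2 pairs of mutually exclusive exons, 6 alternative 5′ and 11 alternative 3′ splice sites and 12 retained introns. On the isoform tags, Fisher's exact test called 3 of the 53, the cassette exons of *Nin*, *Akap9* and *Pcnt*, all with a difference of at least 0.1, where 7.5% of all 11500 tested events were called and 3.3% were called with such a difference. Of the cassette exons alone, 3 of the members' 21 were called with such a difference, against 4.85% of all tested. *Nin* is the gene the study chose on these same samples, and the study also lists *Pcnt* among its splicing targets from them. The exons of *Nin* and *Pcnt* are therefore not independent evidence for the members as a group. Because Fisher's exact test treats each tag as an independent draw, it does not see how embryos of a group differ. An edgeR interaction test, which does, called 2 of the 53, *Nin* and *Akap9*, against 0.557% of all events.

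**Figure D3:**
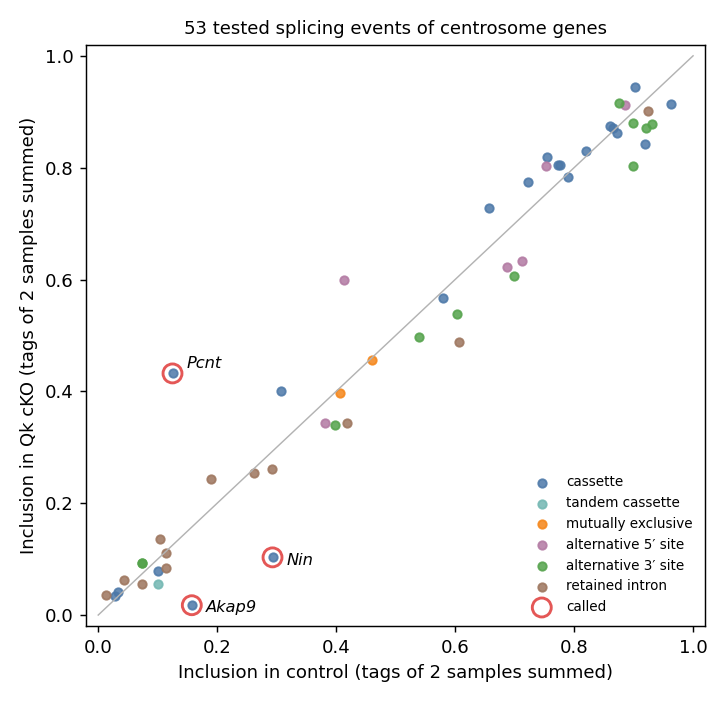
Inclusion in *Qk* cKO (vertical axis) against inclusion in control (horizontal axis) for the 53 tested events of the centrosome genes, from summed junction tags, coloured by event type, with called events ringed. The exons of *Nin* and *Akap9* lie below the diagonal and that of *Pcnt* above it, by 0.307, while most others lie near the diagonal.

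Exon 18 of *Nin* was included less in *Qk* cKO. The tags on its junctions are few, so the counts are given for each sample. The exon 17-18 junction had 12 and 12 tags in the controls and 9.09 and 11 in *Qk* cKO, and the exon 18-19 junction had 29.6 and 21 in the controls and 6.09 and 6 in *Qk* cKO. The junction that skips the exon had 48 and 42 tags in the controls and 75.9 and 64 in *Qk* cKO. Inclusion was 0.302 and 0.282 in the controls and 0.0909 and 0.117 in *Qk* cKO, with 95% Wilson intervals of 0.207 to 0.419, 0.183 to 0.408, 0.0460 to 0.172 and 0.0618 to 0.211, which cover counting error only. The groups did not overlap, as in 37.9% of all tested events, although the intervals of both controls met that of *Qk* cKO 2. The difference was -0.190 (Fisher's exact test p = 2.10e-18, FDR 4.84e-16), between -0.202 and -0.176 with any 1 sample left out, and the edgeR interaction test gave an FDR of 0.0333. With junction tags alone Fisher's exact test gave an FDR of 6.90e-06.

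The tags over the whole of exon 18, which include those on its junctions and are the included-isoform tags of Fisher's exact test above, were also fewer in *Qk* cKO. Exon 18 held 360 and 283 tags in the controls and 117 and 147 in *Qk* cKO. Per kilobase, relative to the rest of *Nin*, this was 0.281 and 0.261 in the controls and 0.0876 and 0.103 in *Qk* cKO, a ratio of 0.352 between the group means. The exon's share of all *Nin* tags fell from 7.09% and 6.62% to 2.32% and 2.72%. The rest of *Nin*, without exon 18, stood at 14.03 ± 0.786 RPKM (SD, n = 2) in the controls and 15.5 ± 1.22 RPKM in *Qk* cKO, so the exon's loss of tags was larger than the change of the whole gene and lay in the other direction.

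The tags of exon 18 were not lost evenly at its 2 ends. Summed over the samples of a group, the upstream junction held 24 tags in control and 20 in *Qk* cKO, and the downstream junction 51 and 12. The downstream junction thus had 2.13 tags per upstream tag in control and 0.600 in *Qk* cKO, a ratio of 0.282 (Fisher's exact test p = 0.00501). Left out in turn, control 1, *Qk* cKO 1 and *Qk* cKO 2 moved the p of the exact test to 0.0481, 0.0245 and 0.0752, with ratios from 0.257 to 0.343, so the call at p under 0.01 was lost without any one of these 3 samples. It held without control 2 (Fisher's exact test p = 0.00468). Radial glia markers, which mark the progenitors, came to 1651 and 1530 RPKM in the controls and 1350 and 1286 in *Qk* cKO, with 4 of 9 at a log2 fold change above 0. Most of this difference was *Fabp7*, and the other 8 summed to 662 and 629 RPKM in the controls and 647 and 620 in *Qk* cKO. *Vim* made up most of that sum, at 481 and 449 RPKM in the controls and 469 and 444 in *Qk* cKO. Both *Qk* cKO samples lay below both controls for 4 of the 9, *Fabp7*, *Slc1a3*, *Sox2* and *Hes5* (22.7% of genes with at least 1 RPKM). They lay above both for 2 (17.9% of those genes). The 8 cortical neuron markers came to 1252 and 1281 RPKM in the controls and 1240 and 1172 in *Qk* cKO. The part of these cell types in the inclusion of exon 18 was not tested.

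**Figure D4:**
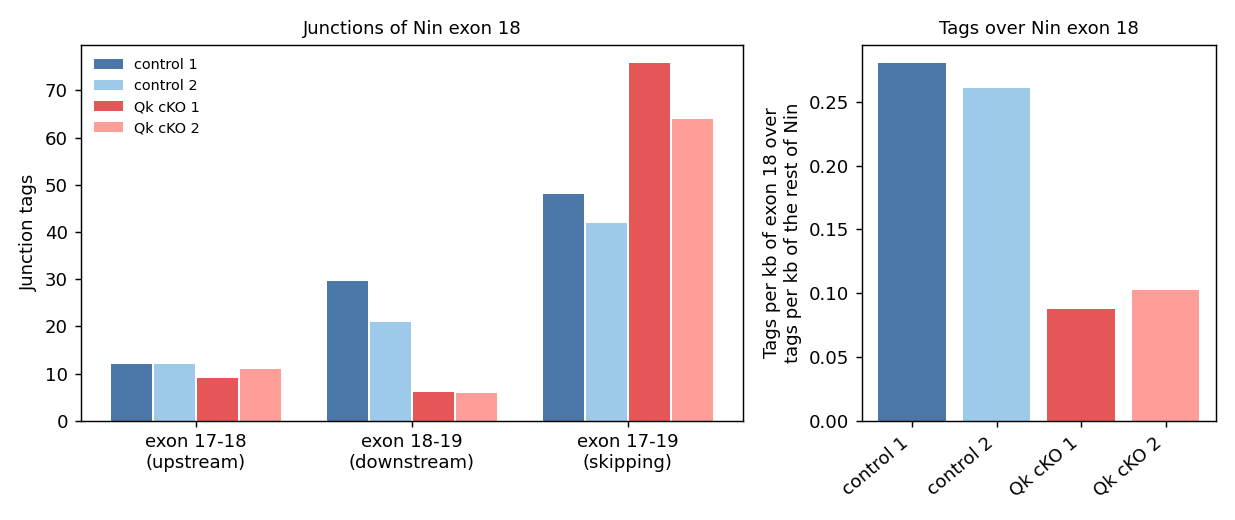
Left, tags on the exon 17-18, exon 18-19 and exon 17-19 junctions of *Nin* in each sample. Right, tags per kilobase of exon 18 divided by tags per kilobase of the rest of *Nin* in each sample. The exon 18-19 junction falls from 29.6 and 21 to 6.09 and 6 tags while the exon 17-18 junction stays near its control values, and the tags over the exon, its junctions included, fall from 0.281 and 0.261 to 0.0876 and 0.103.

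The other 5 tested events of *Nin* were not called (Fisher's exact test FDR 0.662 to 1). Of these 4 concern the 3′ part of the gene, where an exon of 61 nt at chr12:70022281-70022341 may be included, and they share tags. In the cassette event with more tags this exon had an inclusion of 0.704 and 0.754 in the controls and 0.750 and 0.794 in *Qk* cKO, with overlapping groups and a difference of 0.0517 (Fisher's exact test FDR 0.745). The remaining event, a choice of 5′ splice site near the start of the gene, had 29 tags in its least covered group or isoform. Its inclusion was 0.294 and 0.583 in the controls and 0.5 and 0.684 in *Qk* cKO, so that the replicates of a group differed as much as the groups, and the difference of 0.186 had an FDR of 0.662 in Fisher's exact test.

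The 54-nt exon of *Akap9* was nearly skipped in *Qk* cKO. Its upstream junction held 40.2 and 22.1 tags in the controls and 6.03 and 6.04 in *Qk* cKO, and its downstream junction 31.2 and 29.1 against 5.03 and 1.04. The skipping junction held 179 and 150 tags in the controls and 269 and 238 in *Qk* cKO. Inclusion was 0.166 and 0.146 in the controls and 0.0202 and 0.0147 in *Qk* cKO, and here the Wilson intervals of the groups, from 0.101 to 0.222 and from 0.00541 to 0.0446, were apart. The difference was -0.140 with an FDR of 1.24e-15 by Fisher's exact test and 0.0148 by the edgeR interaction test. As in *Nin*, the included form was the minor one in control. The tags of both junctions were lower in each *Qk* cKO sample than in either control, as they were at *Nin* exon 18, where the upstream junction differed little.

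The 21-nt exon of *Pcnt* moved the other way and had the largest difference in inclusion of the 53 events. Its upstream junction held 7.24 and 1.13 tags in the controls and 20.3 and 20.4 in *Qk* cKO, and its downstream junction 9.24 and 3.13 against 22.3 and 19.4. The skipping junction held 38.8 and 33.9 tags in the controls and 25.7 and 28.6 in *Qk* cKO. Inclusion was 0.175 and 0.0591 in the controls and 0.454 and 0.411 in *Qk* cKO. Both *Qk* cKO samples were above both controls, and control 2 was well below control 1. The interval of control 1, 0.0924 to 0.307, overlapped that of *Qk* cKO 2, 0.284 to 0.551. The difference of 0.307 had an FDR of 4.02e-04 by Fisher's exact test and of 0.273 by the edgeR interaction test, so the call does not hold once the variation between embryos is included. Another tested event of *Pcnt*, an alternative 3′ splice site, was not called (Fisher's exact test FDR 0.953).

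**Figure D5:**
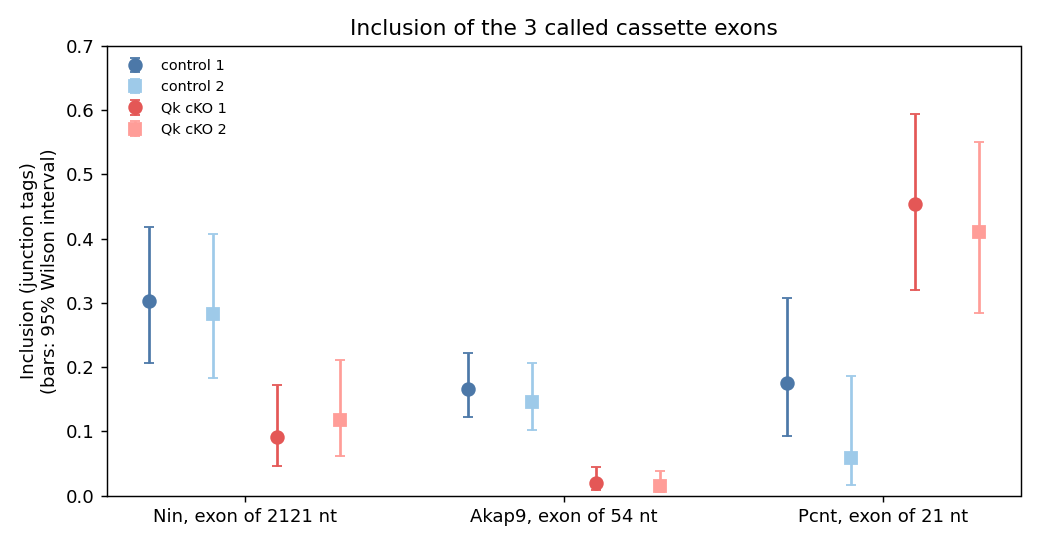
Inclusion from junction tags (vertical axis, a share from 0 to 1) of the 2121-nt exon of *Nin*, the 54-nt exon of *Akap9* and the 21-nt exon of *Pcnt* in each sample, with 95% Wilson intervals as bars. *Nin* falls from 0.302 and 0.282 to 0.0909 and 0.117, *Akap9* from 0.166 and 0.146 to 0.0202 and 0.0147, and *Pcnt* rises from 0.175 and 0.0591 to 0.454 and 0.411.

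The other 50 tested events of the centrosome genes were not called. Their absolute difference in inclusion had a median of 0.0325 and reached 0.1 in 2 events, the 5′ splice site near the start of *Nin* and a retained intron of *Cep72*, a pericentriolar protein, which had an inclusion of 0.590 and 0.647 in the controls and of 0.461 and 0.514 in the *Qk* cKO samples (Fisher's exact test FDR 0.711). The groups did not overlap in 23 of the 53 events (37.9% of all events), and 11 had an unadjusted p under 0.05 (16.8% of all events). *Odf2* had the most tested events, 7, with *Nin* at 6 and *Cep170*, whose protein meets ninein at the subdistal appendages, at 5. None of those in *Odf2* or *Cep170* was called. Fisher's exact test called 7.5% of all tested events. No tested event was called in the gamma-tubulin complex (11 events in 5 genes), among centriole assembly genes (7 in 4), satellite and ciliary gate genes (3 in 1) or spindle pole genes (3 in 1). The scaffolds had 2 called of 9 tested events, of which the edgeR interaction test called 1, and the ninein family and appendage proteins 1 of 20. These counts are too few to set the roles apart. The median coverage of the tested member events was 61 tags, against 65.8 for all events, and no member event with a difference under 0.1 was called.

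Other genes of the same structures were counted beside the 36. Of 32 other centrosome and centriole genes none was called in level, with a median log2 fold change of 0.10 and 22 above 0 (50.6% of genes with at least 1 RPKM). By Fisher's exact test, which called 7.5% of all 11500 tested events, 4 of the 56 in these genes were called. 2 of these were cassette exons of *Mdm1*, a microtubule-binding centriole protein, with inclusion rising from 0.230 to 0.452 (FDR 1.30e-04) and from 0.672 to 0.835 (FDR 0.0481). A cassette exon of *Cep110*, the centriolar protein centriolin, fell from 0.538 to 0.245 (Fisher's exact test FDR 0.00569). Its coverage was 20 tags, the minimum for a test, and with junction tags alone the exact test did not call it (FDR 0.151). A retained intron of *Fbf1*, a distal appendage protein, rose from 0.0953 to 0.184 (Fisher's exact test FDR 0.0306). Of 15 genes of augmin and gamma-tubulin recruitment, *Tacc1*, which joins microtubule-growth factors to the centrosome, was lower (log2 fold change -0.47, edgeR FDR 0.0430). Among their 16 tested events a cassette exon of the augmin subunit *Haus2* fell from 0.868 to 0.676 (Fisher's exact test FDR 0.0661). With junction tags alone the exact test did not call the *Haus2* exon (FDR 0.101). None of these 5 events was called by the edgeR interaction test (FDR 0.354 to 0.683). The study lists *Mdm1* and *Haus2* among its splicing targets from these same samples, so their events are not independent of its list. Of 17 other primary microcephaly genes, *Casc5*, the kinetochore scaffold, and *Cdk6*, a cell cycle kinase, were higher (log2 fold change 0.40 and 0.48, edgeR FDR 0.0671 and 0.0959), and none of their 10 tested events was called. *Nin* and *Akap9* were thus the only genes of these 4 lists, the members included, with an exon called by both tests.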

How the data were processed

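Cortical mRNA of 2 control and 2 *Qk* cKO embryos was analysed. Reads had been aligned by the authors with OLego (genome build mm10 plus known exon junctions), and Quantas gave the quantities. They deposited estimated counts of tags (expected counts) per gene, per splicing isoform and per junction, and RPKM per gene. Here tags were rounded and fitted with edgeR 4.0.16 (R 4.3.3; TMM scaling, quasi-likelihood test, genes with at least 1 tag). DESeq2 1.42.0 was an alternative. Splicing events with at least 20 junction tags in each group and isoform were tested with Fisher's exact test (scipy 1.17.1, FDR within each of 6 event types) and with an edgeR interaction of isoform and genotype. Calls needed p under 0.01 and FDR under 0.1. The tests of transcript levels and of splicing events were also run on simulated data. Members and lists were chosen with earlier results of these data known. Named were *Nin*, called members, members with a called exon, the 3 highest and 3 lowest fold changes, and the highest and lowest level, while genes of the other lists were named where called. Positions and exon sequences came from GENCODE M21. Other genes mentioned show each role's range and were chosen after their values were seen. The labels state no separate litters or days, so the p-values of edgeR and DESeq2 measure the spread between these samples. Those of Fisher's exact test cover counting error only. The HITS-CLIP and PCR data of the study were not analysed here.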

Additional observations from a re-analysis of the deposited data

How the results depend on the processing

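The number of called member transcripts was 1 with edgeR's quasi-likelihood test, with DESeq2, with upper-quartile scaling and without *Qk* cKO 1. It was 0 with edgeR's exact test and with the stricter filter on low counts, and ranged from 0 to 1 with 1 sample left out. Over all genes the 110 calls became 57 with edgeR's exact test, 11 with the stricter filter, 192 with the replicate block, and 11, 0, 424 and 65 without control 1, control 2, *Qk* cKO 1 and *Qk* cKO 2. *Aspm* was the call in each fit that made 1. Called member events numbered 3, and 5 with junction tags only, where *Cep120* and *Cep170* were added, and 4 at a coverage of at least 10 tags, where *Cntrob* was added (these genes were named after their values were seen). With 1 sample left out they ranged from 3 to 5, with *Odf2* and *Pcm1* added without control 1. The exons of *Nin*, *Akap9* and *Pcnt* kept their call under every alternative except *Pcnt* in the interaction test (FDR 0.273). The downstream to upstream ratio at *Nin* exon 18 ranged from 0.240 to 0.343 with 1 sample left out. Signs turned for log2 fold changes near 0. *Tubgcp2* ranged from -0.078 to 0.0096 with 1 sample left out, turning without control 1, and *Mcph1* from -0.028 to 0.041, turning without control 1 and without *Qk* cKO 1, and it was -5.60e-06 with upper-quartile scaling. The cause of these changes was not tested. Replicate numbers were not taken to pair the samples. The correlation of same-numbered samples' deviations was 0.303 over all genes, -0.0807 over autosomal genes and -0.0140 over events. Same-numbered samples were also of the same sex by *Xist*, so a block by replicate number is also a block by sex. With that number as a block in the fits, 1 member transcript (*Aspm*, edgeR FDR 0.0788) and 3 member events were called. The ratio at *Nin* exon 18 kept its call in the Cochran-Mantel-Haenszel test, and the block changed no other call of a member.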
